A study of Homo sapiens with 4 samples.

Results

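The 266 loci described here are human transcript segments whose selected adenosine lies in an AGACH motif, in which H stands for any base but G. Each is a segment of 141 nt with the motif at positions 49 to 53 and the adenosine at position 51, from the m6A class of a designed RNA library. The rule uses only the motif and the class and no measured value, although it was written with earlier results of these data known. Each was present as 3 oligonucleotides that differed in their tag, so 798 of 11999 oligonucleotides and 266 of 3949 sequences belong here. AGACU made up 174 loci, AGACA 58 and AGACC 34. Per the labels, the m6A class was taken around adenosines that miCLIP2 had called methylated in HEK293T, an embryonic kidney cell line.

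The whole pool was transcribed in vitro and incubated with recombinant METTL3–METTL14 (methylated, 2 libraries) or without it (unmethylated, 2 libraries). Both groups then went through an immunoprecipitation with an antibody against m6A. In miCLIP2, reverse transcription ends at the crosslinked antibody, and these ends were counted at each of the 141 positions of every oligonucleotide. The unmethylated libraries give the antibody background on RNA that had not met the enzyme. Nothing in the labels says that the libraries of a group came from separate reactions, so p-values measure the spread between these libraries, which may be technical.

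METTL3 is the catalytic subunit of the complex that writes N6-methyladenosine on messenger RNA, and METTL14 is its RNA-binding partner. The complex works on DRACH motifs (D is A, G or U, and R is A or G), among which GGAC is the classical preferred core. AGAC differs from it only in the first base, and many such motifs occur in transcripts without carrying the mark.

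Short stretches around the adenosine show the loci with the largest rises, followed by 5 loci that did not pass the test although they were among the 3 with the most signal for their 5-mer. Each is written 5′ to 3′ as DNA over positions 37 to 65 of the deposited oligonucleotide, with the 5-mer and the base 4 nt upstream of the adenosine in capitals. The upstream base is marked because the response differed with it, as described further on. The loci with the largest rises were these.
CIT: aaagcatgcaAtAGACTtgctcggagccc
chr1:227734738: catgactctcAgAGACTacatcacctact
POGZ: catctcctgaAgAGACAattgagcctgaa
ZSWIM9: cgaggcggccAgAGACCtggacgcgtgtg
ATXN1L: ccagtaaaacAtAGACCtttacccaaagc
TMED3: gcagcgctgaAaAGACAtttacaactagg
GPR157: ggctttccttGgAGACTttgctcaacaga
ZDHHC12: gagcttcaagTcAGACAgatccctgcctt
BAIAP2-DT: cgacgcatttAcAGACCactccctcttct
GPRIN1: cggcttcagcAaAGACAgatctcacatct

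Of the loci with high signal for their 5-mer that did not pass, 5 are shown here. NSD1, with A 4 nt upstream, also did not pass and is given as a whole segment below.
chr9:74952914: ctccgcctggCcAGACAgagtgcgcgcgc
TMCC1-DT: gcagccatgtTgAGACTgacgctgagggg
B4GALT2: tctgcagtggGcAGACTgctgatcgagtt
SOX13: ggtggtgctcAcAGACTgatcccggctgg
OBSL1: agtgcgcgccTaAGACCttctgggtgaac

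Whole segments are given for POGZ, whose AGACA rose, for NSD1, the most abundant AGACC locus, and for TMCC1-DT, the most abundant AGACU locus, with the 5-mer in capitals.
POGZ: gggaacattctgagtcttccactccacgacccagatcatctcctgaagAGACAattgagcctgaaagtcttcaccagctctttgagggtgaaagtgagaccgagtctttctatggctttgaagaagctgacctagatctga
NSD1: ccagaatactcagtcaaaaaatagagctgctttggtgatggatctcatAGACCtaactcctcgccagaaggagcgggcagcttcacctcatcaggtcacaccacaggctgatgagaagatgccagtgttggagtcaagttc
TMCC1-DT: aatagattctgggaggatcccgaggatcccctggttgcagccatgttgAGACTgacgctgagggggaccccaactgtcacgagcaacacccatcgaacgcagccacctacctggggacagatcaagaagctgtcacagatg

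The coordinates in the deposited table fit the human assembly GRCh38. All 94 loci of the pool that shared a 30-mer with a RefSeq promoter window of GRCh38.p14 lay at the stated position and strand, 3 of 3 among these loci. Of the 266 loci, 228 lay in exactly 1 RefSeq gene, 37 in several and 1 in none. For 181 loci the strand of the gene was known, and 177 were transcribed from it. Exon and UTR boundaries were not used here. A locus in exactly 1 gene is named by that gene, and others by their coordinate.

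The libraries held 10483825 and 12028474 counts (unmethylated replicates 1 and 2) and 13110615 and 13265092 counts (methylated replicates 1 and 2). Values of 4 libraries are given in this order throughout. The AGACH segments were sparsely covered at the adenosine itself: the median locus had 15 counts there over all 4 libraries, and 55 loci had none. A locus was tested when at least 2 libraries had at least 10 counts at the adenosine, after the 3 tag copies were summed. This left 158 loci untested.

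Of the tested AGACH loci, 27 rose after incubation with the enzyme (25.0%, 95% Wilson interval 17.8 to 33.9) and none passed the threshold as lower, in the quasi-likelihood F test of edgeR, with p-values adjusted over all sites by the Benjamini-Hochberg method. The interval covers counting error only. Over all 142938 tested sites of the pool, 3.7% were higher and 2.01% lower. At an unadjusted p under 0.05, 50 of the loci were higher and 3 lower, where 10.4% of all sites were higher and 8.05% lower. The median log2 fold change of the tested loci was 0.93, against -0.01 over all tested sites. Both methylated libraries lay above both unmethylated ones in 74 loci and below them in 5, and the groups overlapped in 29. The 5 were B4GALT2, YLPM1, MAP4, SHQ1 and TMCC1-DT. The share of all sites with the groups apart was not computed, so these counts have no background to be set against. Of the tested loci, 23 were tested only because of their methylated libraries, which favours a rise, and 8 of these were called. Among the other 85, 19 were called.

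A change in the amount of a whole segment would move its adenosine too. Set against the total of its own sequence in each library, 26 loci were higher and none lower, with 1.8% higher and 0.403% lower over all sites. Of these 26, 23 were among the 27. DESeq2, which gave an adjusted p for 87 loci, called 16 higher (14.8% of the tested loci), each also called by edgeR, against 2.13% of all sites.

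The signal at the adenosine, summed over all 266 loci, was 463.8 and 540.9 CPM (counts per 1000000 counts of the library) without the enzyme and 717.7 and 668.5 CPM with it. The means were 502 ± 54.5 and 693 ± 34.7 CPM (SD, n = 2 each), a ratio of 1.38, and the groups did not overlap (exact permutation p = 0.3333, the smallest that 2 against 2 libraries allow). A few loci carried much of this sum. The 5 most abundant, chr9:74952914, TMCC1-DT, B4GALT2, SOX13 and LINC01786, held 36.2% of the counts, and together their ratio was 0.877. Without them the sums were 249.7, 285.4, 488.7 and 485.9 CPM, a ratio of 1.82. The 158 loci too sparse to test also had more signal together, with 13.1, 12.1, 20.9 and 27.1 CPM, a ratio of 1.91.

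The rise was placed at the adenosine. At the other offsets within 20 nt, the ratio of the summed signal lay between 0.827 at the next nucleotide and 1.24 at 20 nt downstream, against 1.38 at the adenosine. Without the 5 abundant loci these bounds were 0.873 and 1.46, against 1.82. One nucleotide upstream, the ratio was 1.03 and 2 of 75 tested sites rose. Within its segment the adenosine of a called locus had a median rank of 68 among the 141 positions without the enzyme and of 15 with it, and took a median of 0.378% and 1.49% of the counts. These ranks describe loci already chosen by the test.

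The response went with the base 4 nt upstream of the adenosine. With A there, 22 of 53 tested loci rose (41.5%, 95% Wilson interval 29.3 to 54.9), with a median log2 fold change of 1.37. These 22 include all 8 called loci that were tested only because of their methylated libraries, which favours a rise. With another base, 5 of 55 rose (9.09%, 3.95 to 19.6), with a median of 0.48. The counts were 0 of 15 for C, 3 of 25 for G and 2 of 15 for U. This grouping was one of 24 combinations of base and offset looked at (offsets 3 to 5 nt on either side), and it was singled out after the values had been seen. At the other offsets the share of loci that rose lay between 14.3% (A, 3 nt upstream) and 41.7% (A, 3 nt downstream, 5 of 12). The filter acted unequally on loci with A 4 nt upstream and on the others. Without methylated replicate 1, 34 loci with A and 50 with another base could be tested, with median log2 fold changes of 1.09 and 0.42. Without methylated replicate 2 these numbers were 34 and 49, with medians of 1.26 and 0.46.

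Summed over the loci with A at this place, the adenosine gave 130.1 ± 13.9 CPM without the enzyme and 294 ± 7.16 CPM with it (SD, n = 2 each), and each methylated library stood above both unmethylated ones. The ratio was 2.26, and 2.58 without the abundant loci. Over all loci, 2.26 was not the largest ratio among the 24 combinations of base and offset. U 3 nt downstream gave 2.53 and A 5 nt downstream 2.38. Over the 130 loci with another base 4 nt upstream, the adenosine gave 343.5, 400.9, 418.3 and 379.3 CPM, and the groups overlapped. The ratio was 1.07, and 1.44 without the abundant loci. The log2 ratio of the first sum to the second was -1.51 and -1.52 without the enzyme and -0.48 and -0.39 with it. This difference of 1.08 exceeded the spread between replicates (exact permutation p = 0.3333, the smallest possible) and was 0.84 without the abundant loci. Loci with A also had the lower background: per 1000 counts of their segments, the adenosine took 4.01 and 4.74 counts without the enzyme, against 9.73 and 11.2 with another base. With the enzyme the values were 10.8 and 10.5 with A, and 11.9 and 10.6 with another base. Without the abundant loci the order with the enzyme was the opposite: 3.28 and 3.88 counts became 9.72 and 9.64 with A, and 5.58 and 6.61 became 8.76 and 8.26 with another base.

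By 5-mer the numbers were small, and the difference was not tested. In AGACA, 8 of 17 loci with the upstream A rose, against 2 of 11 with another base. In AGACC the counts were 6 of 13 and 0 of 5, and in AGACU 8 of 23 and 3 of 39. Against the totals of their segments, 21 of 53 loci with A and 5 of 55 without it rose. DESeq2 called 11 of the 38 loci with A that had an adjusted p (28.9%) and 5 of 49 with another base (10.2%). Leaving out methylated replicate 1 lowered the counts to 6 of 34 and 3 of 50, and leaving out methylated replicate 2 to 7 of 34 and 4 of 49.

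Sites outside these loci had not been used to single out this base. In the class selected around unmodified AGACH adenosines, 7 of 15 tested loci with A 4 nt upstream rose (46.7%, Wilson 24.8 to 69.9) and 1 fell. With another base 7 of 87 rose (8.05%, 3.95 to 15.7) and 0 fell. AGACH motifs elsewhere in segments of both classes, each 21-nt context taken once, rose in 61 cases with A (48.03% of those tested, 39.5 to 56.7) and in 73 of 344 without it (21.2%, 17.2 to 25.8). In GGACH loci of the m6A class 99 of those tested rose with A (75.6%, 67.6 to 82.1), and with another base the interval of the share was 44.3 to 55.7% of 288. The summed signal differed in the same direction in all 3 sets, with differences of 0.79, 1.13 and 1.21 on the log2 scale (exact permutation p = 0.3333 each, the smallest possible). Without the 5 most abundant sites of each set they were 0.45, 0.92 and 0.85. Segments share bases and libraries across these sets, so these are not independent experiments. The shares that rose rest on the same count filter. How many of these sites were tested only because of their methylated libraries, which favours a rise, was not counted.

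An A at this place was also more common among the AGACH loci of the m6A class, at 51.1%, than in the unmodified AGACH class, at 13.9%, or in GGACH loci of the m6A class, at 28.4%. These shares describe the loci chosen for the design and not a response to the enzyme. Why they differ was not tested. The loci with and without the A differed in other ways as well: 53.7% and 77.7% of them were AGACU, the median GC content was 52.8% and 56.03%, and the sum of the 2 group means of segment counts had a median of 1544.25 and 2442.75. The part of these properties in the split was not tested, apart from the counts by 5-mer.

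Single loci show the size of the changes. In 7 of the 10 largest rises (CIT, chr1:227734738, POGZ, ZSWIM9, ATXN1L, TMED3 and BAIAP2-DT) both unmethylated libraries had fewer than 10 counts. These loci were tested only because their methylated libraries were high, so their p-values are no independent support, and without a methylated library they could not be fitted. The AGACU of CIT, which encodes citron kinase of cytokinesis (chromosome 12, position 119687372, minus strand), had 0 and 1 counts without the enzyme and 50 and 50 with it. Both methylated libraries stood far above the background, and the ratio of the counts per total was 85.4 with a 95% counting interval of 15.0 to 3405. The fitted log2 fold change was 6.09 ± 0.76 SE (edgeR adjusted p = 9.78e-06) and was 5.29 and 8.55 without unmethylated replicates 1 and 2. Of its 3 tag copies, 2 rose and the third had no count at the adenosine. The 2 were likewise tested only because of their methylated libraries. No other DRACH motif lies in this segment.

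In POGZ, a zinc finger gene of chromatin regulation (chromosome 1, position 151404903, minus strand), the AGACA had 2, 3, 34 and 65 counts. Both methylated libraries stood far above the background, although they differed from each other, and the log2 fold change was 3.98 ± 0.60 SE (edgeR adjusted p = 0.000109). The AGACC of ATXN1L, a gene for a transcriptional co-repressor related to ataxin-1 (chromosome 16, position 71850961, plus strand), had 3, 6, 72 and 56 counts and a log2 fold change of 3.55 ± 0.50 SE (edgeR adjusted p = 5.42e-05). Both tag copies that could be tested rose in ATXN1L, and the 1 that could be tested rose in POGZ. These copies were also tested only because of their methylated libraries, so their rise adds no support. Both loci stayed called against the totals of their segments.

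Other large rises rested on fewer counts. The AGACU at chr1:227734738 (minus strand), inside both JMJD4 and SNAP47, had 1, 0, 15 and 13 counts (log2 fold change 4.26 ± 1.05 SE, edgeR adjusted p = 0.0143), and its log2 fold change was 6.76 without unmethylated replicate 1. ZSWIM9 (chromosome 19, position 48195260, plus strand) had 1, 1, 19 and 15 counts at its AGACC (3.69 ± 0.86, adjusted p = 0.00991). BAIAP2-DT, a noncoding RNA gene (chromosome 17, position 81032452, minus strand), had 1, 4, 27 and 13 counts at its AGACC, and its log2 fold change of 2.702 ± 0.74 did not pass against the total of its segment (edgeR adjusted p = 0.178) or without unmethylated replicate 1 (0.0828). The AGACA of TMED3, which encodes a cargo protein of the early secretory pathway (chromosome 15, position 79322443, plus strand), had 6, 0, 45 and 33 counts. Its log2 fold change of 3.39 ± 0.68 passed with edgeR (adjusted p = 0.00277) and missed with DESeq2 (0.413), and it was 8.23 and 2.35 without unmethylated replicates 1 and 2. For chr1:227734738, ZSWIM9 and BAIAP2-DT, DESeq2 gave no adjusted p, so it did not call them.

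The better covered rises among the 10 largest were those of GPR157, ZDHHC12 and GPRIN1. GPR157, an orphan G protein-coupled receptor gene (chromosome 1, position 9103923, minus strand), had 7, 36, 223 and 202 counts at its AGACU, with unequal unmethylated libraries (3.06 ± 0.42 SE, edgeR adjusted p = 3.66e-05). Leaving out a library moved this value between 2.36 and 4.57. The counts of its whole segment were also higher with the enzyme, 27787 against 14468.5 on average, and set against them the log2 fold change was 2.39. ZDHHC12, a palmitoyltransferase gene (chromosome 9, position 128721044, minus strand), had 8, 14, 91 and 100 counts at its AGACA (2.85 ± 0.40). GPRIN1, named for a role in neurite outgrowth (chromosome 5, position 176598637, minus strand), had 10, 9, 58 and 88 at its AGACA (2.66 ± 0.43). In both, each methylated library was several times each unmethylated one. Of the 10 loci, 8 had A 4 nt upstream. GPR157 with G and ZDHHC12 with U were the exceptions. Those with A include the 7 tested only because of their methylated libraries. The 10 were picked from the same values in which this base was singled out, so the count adds no support.

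The 17 other called loci had smaller changes, down to 1.21 for IL17RA. The AGACU of LINC01786 (chromosome 1, position 1274413) gave 12.9, 11.9, 36.2 and 29.7 CPM, a log2 fold change of 1.39, and was the most abundant locus to rise. SWAP70, a gene for a regulator of Rac signalling, had 69, 88, 280 and 170 counts at its AGACA (1.27 ± 0.32 SE, edgeR adjusted p = 0.0152), a call lost without methylated replicate 1 (0.379). The AGACA at chr1:920593, inside LOC107985728 and LOC284600, gave 4.58, 3.24, 9.08 and 11.8 CPM (1.39 ± 0.32 SE), a call lost without methylated replicate 2 (edgeR adjusted p = 0.165). IL17RA, the gene of an interleukin-17 receptor chain, had 25, 39, 89 and 88 counts at its AGACC. Its edgeR adjusted p of 0.0386 became 0.114 with DESeq2, 0.158 without unmethylated replicate 1, and 0.201 and 0.187 without methylated replicates 1 and 2.

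Several of the most abundant AGACH loci gave no detectable rise. At chr9:74952914 (minus strand), which overlaps no RefSeq gene, the AGACA had 797, 786, 1086 and 868 counts, and the groups overlapped in CPM (log2 fold change 0.05 ± 0.26 SE, edgeR adjusted p = 0.956). The AGACU of SOX13, a transcription factor gene (chromosome 1, position 204126130, plus strand), had 246, 404, 466 and 361 counts (0.11 ± 0.28, edgeR adjusted p = 0.898). The AGACC of OBSL1, a cytoskeletal adaptor gene (chromosome 2, position 219570473, minus strand), had 42, 70, 65 and 71 (0.03 ± 0.34, 0.980). All 3 had counts well above the filter in every library. NSD1, a histone H3 methyltransferase gene (chromosome 5, position 177294747, plus strand), gave 3.53, 5.82, 9.84 and 9.42 CPM at its AGACC. Its groups did not overlap, but its log2 fold change of 1.00 ± 0.33 missed the threshold (edgeR adjusted p = 0.0765). With a filter at 50 counts it passed (edgeR adjusted p = 0.0441), and 1 of its 2 tested tag copies rose. Against the total of its segment (edgeR adjusted p = 0.197) and with DESeq2 (adjusted p = 0.191) it missed. Without unmethylated replicates 1 and 2 its log2 fold change was 0.66 and 1.45.

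A pair of abundant AGACU loci had lower values with the enzyme. TMCC1-DT, a noncoding RNA gene (chromosome 3, position 129905746, plus strand), had 647, 1187, 632 and 495 counts, or 61.7, 98.7, 48.2 and 37.3 CPM (log2 fold change -0.94 ± 0.28 SE, edgeR adjusted p = 0.0524). It passed as lower without unmethylated replicate 1 (0.000774), and with library totals, no count filter or a filter at 50 counts. B4GALT2, a galactosyltransferase gene (chromosome 1, position 43981696, plus strand), had 419, 553, 344 and 305 counts (-0.83 ± 0.27, adjusted p = 0.0699), and passed as lower without unmethylated replicate 1 (0.0289) or with a filter at 50 counts (0.0419). Against the totals of their segments the values were -0.62 and -0.11. In B4GALT2 the adenosine was the most counted position of its segment in both groups, with 33.3% and 30.7% of its counts. A further locus that did not pass gave 17.8, 18.5, 10.8 and 21.3 CPM at its AGACU (-0.22 ± 0.30, edgeR adjusted p = 0.774).

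The tag copies of a locus allow a look at the spread between oligonucleotides of one sequence. Taken one by one, 35 oligonucleotides rose at the adenosine and 1 fell, where 3.8% of all such sites were higher. How many of them were tested only because of their methylated libraries was not counted. Of the 83 loci with at least 1 copy tested, 27 had a copy that rose, and 22 of these also rose when summed. All 3 copies were tested in 13 loci: in 6 none rose, in 6 just 1 rose, and in 1 locus 2 rose. Within these 13 loci the log2 fold changes of the copies spanned a median of 1.19 and at most 2.79. Loci with only 2 copies tested could span more, as in CIT with 7.80 and 4.79. The copy that fell was one of B4GALT2, with 177 and 245 counts without the enzyme and 33 and 42 with it (log2 fold change -2.73), while another copy of this sequence gave 0.06.

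Other motifs in the same segments offer a comparison under equal conditions. Besides the selected adenosine, 239 of the 266 segments held another DRACH motif, with a median of 2. Of 186 such motifs tested, 54 were higher and none lower. Among them, 27 of 59 GGACH motifs rose (45.8%, median log2 fold change 1.65), 14 of 54 AGACH (median 0.94), 7 of 22 GAACH and 4 of 32 UGACH. Outside DRACH, 9 of 33 DRACG motifs rose (27.3%, median 1.08), and in other NNACN contexts 15 of 232 rose and 2 fell. Adenosines outside any NNACN context rose in 19 of 1814 cases and fell in 23. In TMCC1-DT, whose selected AGACU did not rise, a GGACA 66 nt downstream rose by 4.41 on the log2 scale, with 0.434 ± 0.209 CPM before and 9.88 ± 2.87 after (SD, n = 2 each). In GPR157 a GAACC 18 nt downstream rose by 4.52, more than the selected AGACU, and in SOX13 a GGACU 48 nt upstream rose by 2.39.

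Compared with the GGACH loci of the m6A class, the AGACH loci responded less. Of 419 tested GGACH loci 243 rose, with a median log2 fold change of 2.18. Per 1000 counts of their segments, GGACH adenosines took 3.90 and 4.38 counts without the enzyme and 15.8 and 15.1 with it, against 7.10, 8.30, 11.4 and 10.5 for AGACH. AGACH thus had the higher background and the lower value after methylation. The log2 ratio of the shares was 0.86, 0.92, -0.47 and -0.52, a difference of -1.39 between groups, and of -0.996 without the 5 most abundant loci of each class (exact permutation p = 0.3333 for both, the smallest possible).

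Compared with AGACH loci of the unmodified class, which carry the same motif, the outcome depended on a few abundant loci. Of the tested unmodified loci 14 rose (13.7%) and 1 fell, with a median log2 fold change of 0.34, against 27 (25.0%) and 0.93 here. The medians by 5-mer were 1.13 and 0.29 for AGACA, 1.20 and 0.43 for AGACC, and 0.74 and 0.22 for AGACU. Over the summed counts, however, the log2 ratio of the shares was 0.19, 0.50, 0.35 and 0.36, and the groups differed by 0.01 (exact permutation p = 1). Without the 5 most abundant loci of each class it was -0.16, 0.14, 0.45 and 0.54, a difference of 0.51 (p = 0.3333, the smallest possible in the exact permutation). With A 4 nt upstream the share of loci that rose was 41.5% here and 46.7% in the unmodified class, and with another base 9.09% and 8.05%. Whether these shares differ between classes was not tested.

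The predicted pairing of the adenosine and the GC content went with the response weakly or not at all. The adenosine had a median predicted probability of being unpaired of 0.705, and 20 of 84 loci at or above 0.5 rose, against 7 of 24 below it. Over the tested loci, which share the libraries, the log2 fold change had a Pearson correlation of -0.06 with the unpaired probability, -0.13 with GC content and -0.25 with the mean CPM. The loci that could not be tested had a lower median GC content (48.6%) than the called (58.9%) and the other tested ones (61.7%), and fewer counts per segment over the 4 libraries, with medians of 1018.5, 19293 and 12864.

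The selected adenosine of 13 loci was also present in a second, overlapping segment at another position, a set looked at after the values had been seen. In GLRX5, a gene of iron-sulfur cluster assembly (chromosome 14, position 95544174), the AGACU had 38, 44, 258 and 287 counts at position 51 of its own segment (log2 fold change 2.47) and 31, 43, 265 and 379 at position 110 of the other (2.86). NELFE, a subunit gene of the negative elongation factor, went from 2.31 ± 0.843 to 8.01 ± 2.37 CPM in its own segment (SD, n = 2 each; 1.75) and from 4.09 ± 0.962 to 13.7 ± 3.22 CPM at position 93 of the other (1.72). In both loci the adenosine rose in either segment. The AGACU of MRPL27, a mitochondrial ribosomal protein gene (chromosome 17, position 50368065), had 5, 3, 11 and 11 counts in its own segment (1.17 ± 0.73 SE, edgeR adjusted p = 0.425) and 8, 2, 34 and 67 in a segment shifted by 6 nt (3.03 ± 0.56, adjusted p = 0.00127). LSM10, of the U7 small nuclear ribonucleoprotein, had 0, 0, 1 and 3 counts in its own segment, too few to test, and 6, 15, 53 and 91 at position 87 of another (2.51). VHL, the von Hippel-Lindau gene, had 2, 2, 7 and 3 counts at its AGACC, and 15, 6, 48 and 40 at position 110 of another segment (1.79, edgeR adjusted p = 0.0259). A second AGACU of GLRX5 gave 0.61 in its own segment (adjusted p = 0.589) and 2.23 in the other (0.0299). The other 7 loci gave little information: TRAPPC3, FAM20B, NR2F2, MSH6 and TMEM43 had too few counts to be tested in either segment, and TSC2 and SIMC1 were tested in 1 segment only, without a call. The difference between segments was not tested, and how reads were assigned between overlapping segments is not given in the sources used here.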

How the data were processed

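The deposited table holds raw counts, not normalized, for 141 positions of each oligonucleotide in 4 libraries. FastQC 0.11.8, STAR 2.7.3a and bedtools 2.27.1 appear in the submitters' processing notes. Their roles, a removal of duplicate reads and the build used are not given in the sources used. Counts of tag copies were summed. Sites that reached 10 counts in 2 or more libraries were tested with edgeR 4.0.16 (TMM, quasi-likelihood F test, two-sided, no covariate) under R 4.3.3, adjusted over 142938 sites at a threshold of 0.05, and with DESeq2 1.42.0 as an alternative. Standard errors are the log2 fold change over the square root of F. CPM used library totals. Pairing was predicted with ViennaRNA 2.7.2. Intervals cover counting error only, since reads from one molecule are not independent. The loci and lists were chosen with earlier results of these data known. Named loci were the 10 largest rises past the threshold with both methylated libraries above both unmethylated ones, the 5 largest such falls (none passed), the 3 most abundant tested loci of each 5-mer, and the 5 most abundant tested loci not past the threshold. Other named loci were chosen after their values were seen.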

Additional observations from a re-analysis of the deposited data

How the results depend on the processing

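No log2 fold change of the 13 called named loci changed sign under the alternatives that could be fitted. They were called as rises with the groups apart, so a kept sign says little. With DESeq2, 5 of them were not called: chr1:227734738, ZSWIM9, TMED3, BAIAP2-DT and IL17RA. Of the named loci without a call, chr9:74952914, OBSL1 and SOX13 were among those that changed sign with a library left out. For 7 of the 13 called loci (CIT, chr1:227734738, POGZ, ZSWIM9, ATXN1L, TMED3 and BAIAP2-DT) no alternative could be fitted without a methylated library. DESeq2 called 16 of the 87 AGACH loci with an adjusted p higher, of which 1 was an AGACC locus. Lower calls, 0 in edgeR's fit, were 1 with library totals, 1 with no count filter, 2 with a filter at 50 counts and 1 with tag copies kept apart. Leaving out each library in turn gave 9 to 32 loci higher (9 without methylated replicate 1 and 11 without methylated replicate 2, against 24 and 32 without unmethylated replicates 1 and 2) and 0 to 3 lower. By 5-mer these ranges were 4 to 12 for AGACA, 0 to 5 for AGACC and 5 to 15 for AGACU. The log2 ratio of the summed signal was 0.47 and ranged from 0.36 to 0.58 with a library left out, and the share of segment counts, 0.52, from 0.40 to 0.63; without the 5 abundant loci they were 0.87 and 0.88. The difference from unmodified AGACH loci ranged from -0.15 (without unmethylated replicate 1, a reversal) to 0.16, and that from GGACH loci from -1.41 to -1.36; without the abundant loci the latter was -0.996. With the replicate number as a block, 26 loci were higher and 0 lower (AGACA 9, AGACC 5, AGACU 12). The deviations of same-numbered libraries correlated at -0.08 over all tested sites. With 2 libraries per group this cannot settle whether same-numbered libraries shared a preparation. Depth limits these results: 158 of 266 loci had too few counts to test.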
